A study of Mus musculus with 19 samples.

Results

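The genes described here were the core of the integrated stress response, and they were taken by symbol from both deposited tables: the 4 eIF2 alpha kinases (Eif2ak1, Eif2ak2, Eif2ak3 and Eif2ak4), 3 transcription factors that act downstream of them (Atf4, Atf5 and Ddit3), both regulatory subunits of the eIF2 alpha phosphatase (Ppp1r15a and Ppp1r15b) and the pseudokinase gene Trib3. These were 10 of the 20436 genes listed. The libraries came from hippocampal slices of wild-type male mice aged P28 to P42. Slices received the group I mGluR agonist DHPG (100 µM) or ACSF vehicle (basal) for 5 min and were then placed in cycloheximide (100 µg/ml), an elongation inhibitor that every group therefore shared. Each replicate was a pool of slices from several mice that still contained CA3, so neurons and glia of the whole slice contributed. RNA-seq covered 4 basal and 5 DHPG samples, and ribosome profiling, which sequences the ribosome-protected fragments (RPFs) of mRNA, covered 5 and 5.

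In the integrated stress response, each kinase senses a different stress and phosphorylates the alpha subunit of the initiation factor eIF2, which slows the exchange of GDP for GTP on eIF2 by eIF2B and lowers general initiation. Many mRNAs carry upstream open reading frames in the leader (5′ UTR). In a small set of them, ribosomes can pass the inhibitory upstream frame and reach the main coding sequence when active eIF2 is scarce. The pathway has been studied in the hippocampus because phosphorylation of eIF2 alpha bears on synaptic plasticity, including the long-term depression that DHPG evokes.

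The upstream start codons of the members are shown because translation efficiency is measured on the main coding sequence behind them. On the GENCODE M21 transcript chosen for each gene (build mm10), the leaders of Eif2ak1, Eif2ak4 and Trib3 held no ATG, that of Eif2ak2 held 1, those of Atf5 and Ddit3 held 2, and those of Eif2ak3, Atf4, Ppp1r15a and Ppp1r15b held 3. Each line gives 21 transcript bases, 5′ to 3′, with the upstream start codon in capitals:
Atf4 upstream frame 2: gcggccaccATGgcgtattag
Atf4 upstream frame 3: gcctaagccATGgcgctcttc
Atf5 upstream frame 1: gcccgcgcaATGgctctgtag
Atf5 upstream frame 2: ttcgccgccATGgagtcctcc
Ddit3 upstream frame 1: gattatatcATGttgaagatg
Ddit3 upstream frame 2: atgttgaagATGagcgggtgg
Ppp1r15a upstream frame 1: gcgtggacgATGttggcgcag
Ppp1r15a upstream frame 2: gaagattacATGcgatatccc
Ppp1r15a upstream frame 3: gagggcgacATGaacccgctg

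Atf4 and Atf5 shared one arrangement. In Atf4, frame 2 ended after 3 codons (chr15:80255573-80255593, plus strand), and frame 3 ran for 59 codons and overlapped the main start, 97 bases downstream of its own ATG. In Atf5, frame 1 also ended after 3 codons (chr7:44816526-44816546, minus strand), and frame 2 ran for 58 codons across the main start, 121 bases away. The window around each overlapping frame crossed an exon junction, so it is a stretch of transcript and not of contiguous genome. Frame 1 of Atf4, of 36 codons, lay 475 bases upstream of the main start.

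Ddit3 had a different layout. Its upstream starts (chr10:127290820-127290840 and chr10:127290829-127290849, plus strand) lay 9 bases apart in a common frame of 34 or 31 codons that ended inside the leader. The 3 frames of Ppp1r15a held 45, 34 and 26 codons (windows at chr7:45526223-45526243, chr7:45526179-45526199 and chr7:45526078-45526098, minus strand), and each ended before the main start. Ppp1r15b had frames of 2, 8 and 51 codons that also ended in the leader. In Eif2ak3, 2 of 3 frames overlapped the main start, as did the single frame of 65 codons in Eif2ak2.

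**Figure D1:**
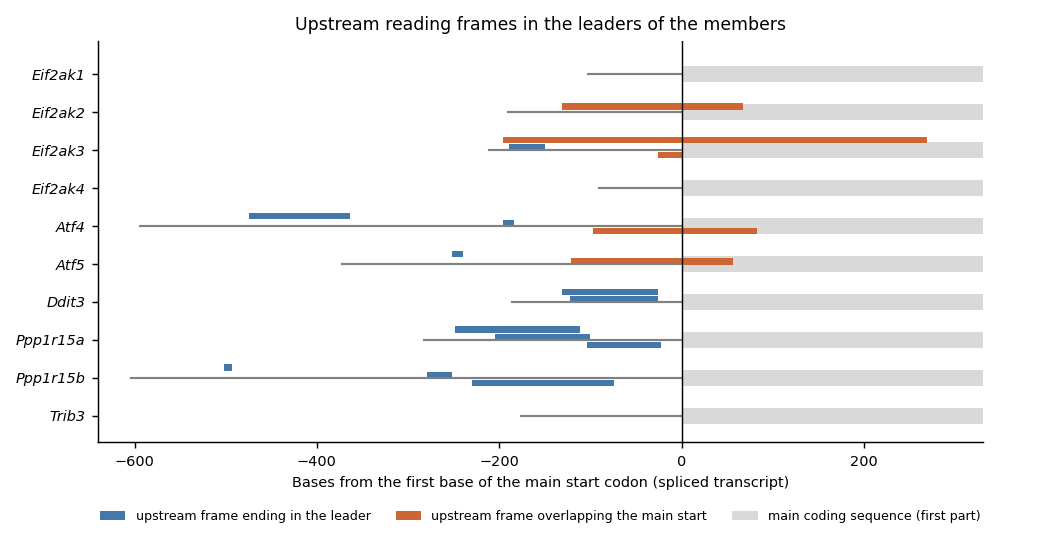
The plot lays out the leader (grey line) and the first part of the main coding sequence (grey block) of each member, with distance in bases from the main start codon on the x axis. Blue boxes are upstream frames that end in the leader and orange boxes those that overlap the main start; Eif2ak1, Eif2ak4 and Trib3 have none.

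The annotation placed Eif2ak1 at chr5:143817788-143904251, Eif2ak2 at chr17:78852564-78882573, Eif2ak3 at chr6:70844515-70905245 and Eif2ak4 at chr2:118388618-118475234. Atf4 lay at chr15:80255184-80257541, Atf5 at chr7:44812256-44816658 and Ddit3 at chr10:127290774-127296288. Ppp1r15a lay at chr7:45522916-45526268, Ppp1r15b at chr1:133131143-133139783 and Trib3 at chr2:152337422-152344032. Exons of 7 of the 10 members overlapped an exon of another annotated gene, over 11 bases in Ppp1r15a and up to 640 bases in Ppp1r15b, and Atf4, Eif2ak4 and Trib3 overlapped none. The leader frame of Ddit3 is also annotated as a coding gene of its own on the same strand. Whether counting used strand is not given in the sources used here, so reads from such stretches cannot be assigned with certainty.

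Library totals were 4870813 to 7793244 counts for RNA and 5692064 to 22092434 for RPFs, and libraries of a group correlated at 0.954 or higher for RNA and 0.987 or higher for RPFs (across genes, on log2 CPM, where CPM is the count scaled to a TMM-normalized library of 1000000). All 9 hippocampal markers (CA1, CA3 and dentate) were detected in every library. Markers of thalamus, a neighbouring region, differed between the groups: 6 of 6 were called higher after DHPG in RPFs by edgeR's test, which called 0.22% of all genes. Their summed RPF level was 106 to 134 CPM in basal and 113 to 178 CPM in DHPG libraries. In RNA 5 of 5 tested were above 0, with 4 at an unadjusted p under 0.05. Prkcd (log2 fold change 0.70, SE 0.106, adjusted p = 0.00444 by edgeR) was the only gene called in RNA. Of 5 oligodendrocyte markers, 5 had a fold change above 0 in RNA (4 at an unadjusted p under 0.05, none called) and 4 in RPFs, where Mag was called (log2 fold change 0.16, SE 0.0352, adjusted p = 0.0337). In RPFs, 5 of 5 astrocyte, 5 of 5 microglia and 0 of 5 endothelial markers were above 0. In RNA these were 4, 3 and 2 of 5, and none was called in either assay. Over all genes, 52.1% in RNA and 51.4% in RPFs were above 0, and 8.02% and 10.8% had an unadjusted p under 0.05. Of 11 immediate early genes, 10 were above 0 in each assay and none was called, with 7 in RNA and 5 in RPFs at an unadjusted p under 0.05. The part of these genes and markers in the results below was not tested. Samples are pools of tissue, so fewer cells that express a gene and less RNA per cell cannot be told apart.

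Under basal conditions the members spanned a wide range of levels. Divided by transcript length, the basal RNA level was highest for Atf4, at 91.0 ± 9.09 CPM per kb (SD, n = 4), followed by Ppp1r15a at 32.6 ± 2.13, Ddit3 at 20.9 ± 1.47, Ppp1r15b at 16.1 ± 1.605 and Eif2ak1 at 14.3 ± 2.07. The neighbours Ppp1r15b and Eif2ak1 differed by less than the sum of their SDs. Among the kinases, Eif2ak1 (HRI, which responds to heme and mitochondrial stress) was followed by Eif2ak3 (PERK, the kinase of endoplasmic reticulum stress) at 9.51 ± 0.536 and Eif2ak4 (GCN2, which senses amino acid shortage) at 6.89 ± 1.079. Eif2ak2 (PKR, activated by double-stranded RNA) was low, at 0.548 ± 0.0891 CPM per kb, and rested on 11 to 18 counts per basal library. Atf5 stood at 3.46 ± 1.002 CPM per kb on 28 to 50 counts.

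Trib3, a target of ATF4 and CHOP that feeds back on both, was close to undetected. It had 0 to 5 counts in the RNA libraries and 0 to 4 in the RPF libraries, and failed the filter on low counts in each test, which left 9 of the 10 members tested. The basal RNA library of replicate 2 had 0 counts, which allows a level of up to 0.612 CPM, and the basal RPF libraries of replicates 3 and 5 also had 0, which allows up to 0.136 and 0.242 CPM (3 counts over the library total, counting error only).

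The order on ribosomes was not the order in RNA. Divided by the length of the counted coding sequence, basal RPFs were highest for Eif2ak1, at 34.1 ± 3.08 CPM per kb (SD, n = 5), then Atf4 at 23.6 ± 2.32, Ppp1r15b at 19.1 ± 2.97 and Ddit3 at 14.4 ± 2.35. Eif2ak3 followed at 7.33 ± 0.852, Ppp1r15a at 5.21 ± 0.131, Eif2ak2 at 3.18 ± 0.682, Eif2ak4 at 2.85 ± 0.197 and Atf5 at 1.83 ± 0.447. The neighbours Atf4 and Ppp1r15b, Ppp1r15b and Ddit3, and Eif2ak2 and Eif2ak4 lay within the sum of their SDs. Ppp1r15a, in the second place among the members in RNA, was the sixth in RPFs.

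Basal translation efficiency (TE), the ratio of RPFs to RNA with both divided by length and set relative to the median gene, was below the median gene for 7 of 9 members and above it for Eif2ak1 and Eif2ak2, all at an edgeR adjusted p under the threshold. Of all 12823 genes tested, 39.5% were called below and 39.3% above, so a call alone was common, and 78.9% had one. The median log2 TE of the members was -1.42, against 0.00095 over all genes. The 7 below the median gene were all 3 transcription factors, both phosphatase subunits and the kinases Eif2ak3 and Eif2ak4.

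Ppp1r15a (GADD34, the stress-induced subunit that directs protein phosphatase 1 to eIF2 alpha) had the lowest TE of the members. In the 4 basal replicates with both libraries its log2 TE was -3.34, -3.52, -3.58 and -3.56. The fitted value was -3.53 (SE 0.126, adjusted p = 1.42e-07), or 8.65% of the median gene, and 108 of 12823 genes, 0.846%, lay lower. Its replicates were the least spread among the members, with an SD of 0.108 (n = 4).

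Atf4, the transcription factor that drives the amino acid and redox program of the response, came next. Its basal log2 TE was -2.40, -2.83, -3.16 and -2.89, and replicate 1 was the highest of these. The fit gave -2.85 (SE 0.144, adjusted p = 4.26e-07), or 13.9% of the median gene, at percentile 2.09. The 95% interval, -3.17 to -2.52, did not overlap that of Ppp1r15a, -3.82 to -3.24, but this separation was lost without division by length (values below).

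A further 4 members lay well below the median gene. Eif2ak4, whose leader held no ATG, had a fitted log2 TE of -2.14 (SE 0.142) at percentile 6.001. Atf5, a factor with a leader layout like that of Atf4, had -1.89 (SE 0.262) at percentile 8.46, with basal values of -0.836, -2.21, -2.08 and -1.76, of which replicate 1 lay apart. Ddit3 (CHOP, a factor tied to cell death under prolonged stress) had -1.42 (SE 0.156) at percentile 15.6, and Eif2ak3 -1.26 (SE 0.134) at percentile 18.7. The intervals of Eif2ak4 and Atf5, of Atf5 and Ddit3, and of Ddit3 and Eif2ak3 overlapped, so the order within each pair was not resolved.

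Ppp1r15b (CReP, the constitutive subunit of the same phosphatase) was nearer the median gene with values divided by length, at a log2 TE of -0.65 (SE 0.121, adjusted p = 0.00092). Its basal values were -0.839, -0.626, -0.689 and -0.414, all higher than every basal value of Ppp1r15a. Eif2ak1 was slightly above the median gene, at 0.39 (SE 0.150, adjusted p = 0.0386). That call was lost without replicate 2 or 3 (adjusted p = 0.190 and 0.102), with limma (0.0522) and without division by length (log2 value 0.18, adjusted p = 0.316). Eif2ak2 stood at 1.52 (SE 0.207, adjusted p = 0.000132), 2.87 times the median gene, although its leader held an ATG whose frame overlapped the main start.

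**Figure D2:**
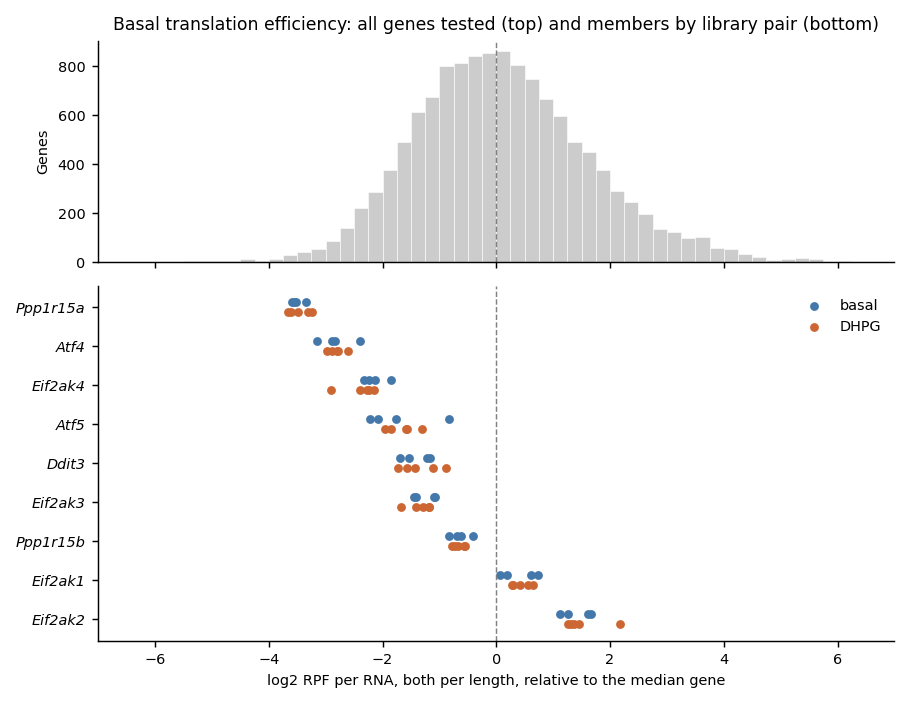
The upper panel counts the genes tested by basal log2 TE in bins of 0.25, within the axis limits of -7 and 7. A few genes lie beyond these limits. The lower panel gives each member's log2 TE for every replicate with both libraries, basal in blue and DHPG in orange. Ppp1r15a and Atf4 sit in the left tail, Eif2ak1 and Eif2ak2 lie right of the median gene (dashed), and the basal and DHPG points of each member overlap.

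Dividing by length affected the members unequally, because the coding sequence made up 35.9% of the transcript of Eif2ak2 and 94.9% of that of Eif2ak4. On CPM without length, Ppp1r15a moved to a log2 TE of -2.77 (SE 0.123) and Atf4 to -2.60 (SE 0.143), which differed by less than the sum of their SEs, so their order was not resolved. Atf5 stood at -2.04 and Ddit3 at -1.36. Eif2ak2 moved from 1.52 to 1.04 (SE 0.209), still above the median gene. Eif2ak4 moved to -1.18 and Eif2ak3 to -0.67, while Ppp1r15b moved the other way, to -1.06, and was then farther from the median gene than Eif2ak3. All of these kept an adjusted p under the threshold.

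Across all genes, 51.8% had at least 1 ATG in the leader and 18.98% had 3 or more, against 7 and 4 of the 9 members tested. The members were chosen in part as mRNAs with upstream reading frames, so these counts describe the choice and are no result. Median log2 TE was 0.16 for the 6180 genes with none, -0.070 for the 2830 with 1, -0.27 for the 1379 with 2 and -0.21 for the 2434 with 3 or more. The members did not follow one another by this number: with 3 upstream ATGs each, Ppp1r15a, Atf4, Eif2ak3 and Ppp1r15b ranged from -3.53 to -0.65, and with none Eif2ak1 was at 0.39 and Eif2ak4 at -2.14. Leaders with more ATGs were also longer, with a median of 110 bases for genes with none and 428 bases for genes with 3 or more, so the number of ATGs and leader length were not separated. RPFs in the leader were not counted by the authors, who used coding sequence only. In Atf4, Atf5, Eif2ak2 and Eif2ak3, an overlapping upstream frame ran past the 30 nt trimmed from the coding sequence. RPFs on that stretch were counted, and those of the upstream and main frames were not separated.

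**Figure D3:**
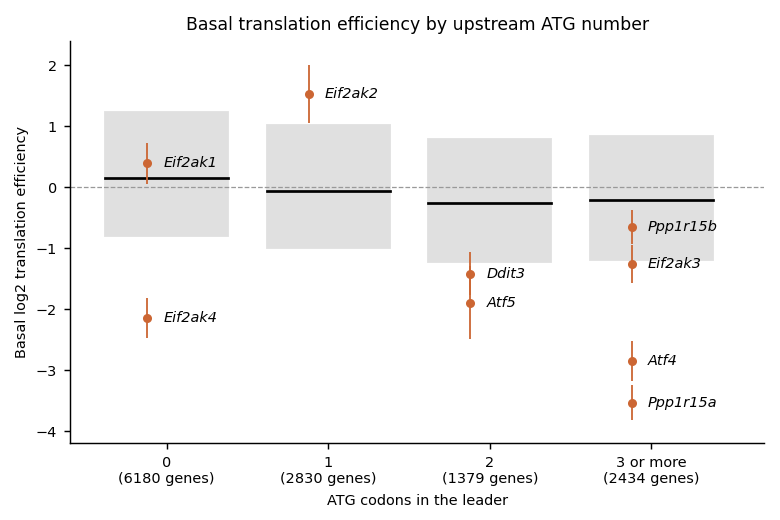
Basal log2 TE on the y axis is plotted against the number of ATG codons in the leader; grey boxes span the quartiles of all genes in each class with the median as a black line, and orange points are members with 95% intervals. The fitted values of 6 members lie below the quartile box of their class, that of Eif2ak2 lies above it, and those of Eif2ak1 and Ppp1r15b lie inside.

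The other genes of the pathway lay on both sides of the median gene in basal TE. Of 12 tested subunits and partners of eIF2 and eIF2B, 4 were called below the median gene and 6 above, with a median log2 TE of 0.23. The range ran from Eif2b5, the catalytic subunit of eIF2B, at -2.29 to Eif2s1, which encodes the eIF2 alpha substrate of the kinases, at 2.43. Among 12 kinase regulators and phosphatase catalytic subunits, 5 were below and 5 above. These included Gcn1l1, an activator of GCN2, at -2.18, which was close to Eif2ak4 itself, and Impact, an inhibitor of GCN2 made in neurons, at 2.88.

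For 29 tested targets of ATF4 and CHOP, 6 were below and 13 above, from Phgdh (serine synthesis) at -1.42 to Cebpg, a dimer partner of ATF4, at 3.94. Of 12 genes of the other arms of the unfolded protein response, 3 were below and 7 above. Of 8 other mRNAs known for upstream reading frames, 3 were below and 3 above, from Ibtk at -1.68 to Bace1 at 0.63. Slc35a4, whose leader held 18 ATGs, had -1.54. The leaders of Ibtk and Bace1 held 4 ATGs each, and that of Impact, at 2.88, held 8.

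DHPG was compared with basal to ask whether brief mGluR activation changed the mRNA, the ribosome load or the TE of these genes. No member passed the threshold in RNA (adjusted p under 0.01), in RPFs or in TE (both under 0.05) by edgeR's quasi-likelihood test with the replicate number as a block. Over all genes the tests called 0.00773%, 0.22% and 0%, so calls were rare throughout. At an unadjusted p under 0.05, 1 of 9 members was found in RNA (8.02% of all genes), none in RPFs (10.8%) and 1 in TE (6.54%, 871 genes). Limma on the per-replicate differences called 0 genes in TE as well. The median log2 fold change of the members was 0.055 in RNA (0.0068 over all genes), 0.012 in RPFs (0.0031) and -0.041 in TE (-0.0020), and for every member the basal and DHPG ranges overlapped in both assays, as they did for all but 0.557% of genes in RNA and 0.409% in RPFs.

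**Figure D4:**
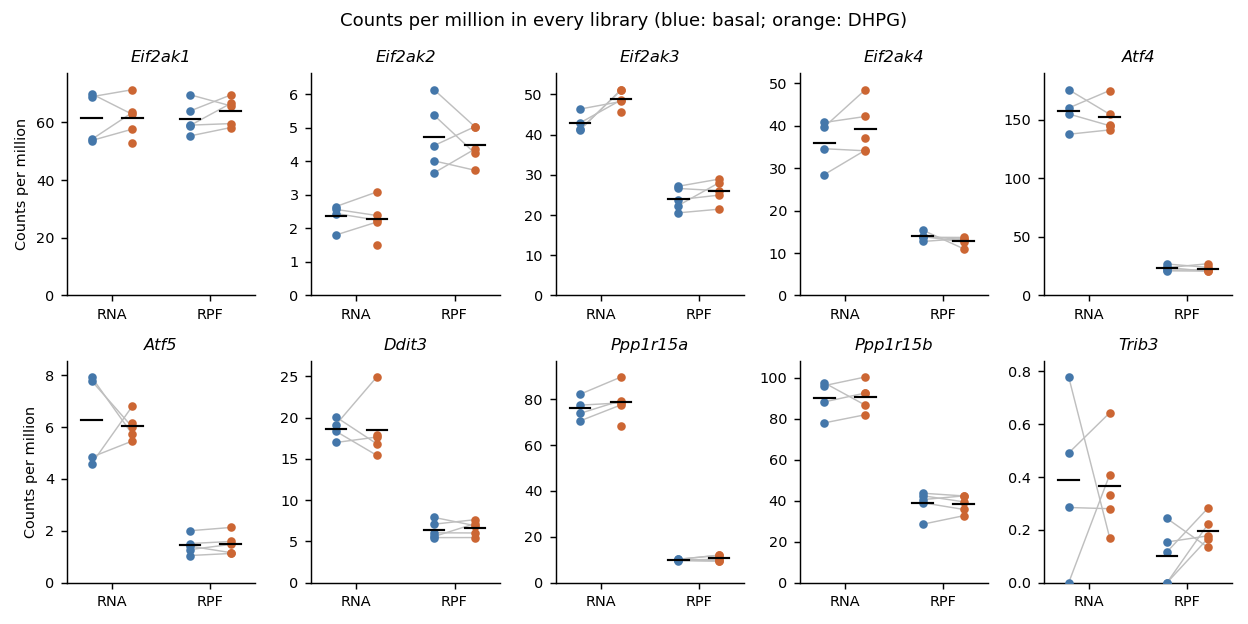
Each panel gives one member's CPM in every library for RNA and RPFs, with basal in blue, DHPG in orange, grey lines joining libraries of the same replicate number and black bars at the group means. Basal and DHPG points overlap in each panel, and Trib3 stays at or below 0.779 CPM.

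Among the kinases, Eif2ak3 came nearest to a call in RNA. Its RNA level was 46.3, 42.9, 41.3 and 41.2 CPM in basal replicates 1 to 4, and 48.2, 48.6, 51.0, 51.2 and 45.5 CPM in DHPG replicates 1 to 5. All 4 pairs were higher after DHPG, but the unpaired DHPG replicate 5 fell below basal replicate 1, so the groups overlapped. The log2 fold change was 0.22 (SE 0.0844, unadjusted p = 0.0139, adjusted p = 0.555), with a 95% interval of 0.049 to 0.39. In RPFs 4 of 5 pairs were higher, with basal values of 22.4, 27.1, 26.6, 20.5 and 23.8 CPM and DHPG values of 28.1, 28.9, 26.0, 21.4 and 24.9 CPM. That difference was smaller, at a log2 fold change of 0.075 (SE 0.0583, adjusted p = 0.692), and TE differed by -0.14 (SE 0.0950, adjusted p = 0.821).

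Eif2ak4 was the member found in TE at the unadjusted level. Its RNA level was 40.8, 34.6, 28.5 and 39.7 CPM in basal libraries and 42.2, 34.1, 34.2, 48.5 and 37.0 CPM after DHPG, higher in 3 of 4 pairs. RPFs went the other way, with 13.7, 12.7, 13.9, 15.4 and 14.01 CPM in basal and 13.7, 13.4, 12.6, 11.01 and 13.1 CPM in DHPG libraries, lower in 4 of 5 pairs. The TE log2 fold change was -0.28 (SE 0.117, unadjusted p = 0.0218, adjusted p = 0.710), with an interval of -0.52 to -0.044. Replicate 4 had the largest step, from a log2 TE of -2.13 to -2.91, and leaving out one replicate at a time gave fold changes between -0.39 and -0.14 (log2).

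The other kinases showed smaller differences. Eif2ak1 differed by 0.055 in RNA (SE 0.0808) and 0.051 in RPFs (SE 0.0428), and its TE by 0.00088 (SE 0.0849), all on the log2 scale. The TE interval allowed a change between -11.3% and 12.8%. For Eif2ak2 the low counts left a wide interval for TE, from -38.2% to 39.4%, so a change within that range was not detectable at this depth.

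For Atf4, no difference was detected in any measure. Its RNA was 137, 160, 176 and 155 CPM in basal libraries and 141, 175, 155, 145 and 146 CPM after DHPG. RPFs were 26.8, 23.7, 21.0, 21.6 and 23.9 CPM in basal and 24.0, 27.1, 20.8, 21.9 and 20.6 CPM in DHPG libraries. Replicates moved in both directions, with 2 of 4 pairs higher in RNA and 2 of 5 in RPFs. The log2 fold change was -0.023 in RNA (SE 0.0720), -0.014 in RPFs (SE 0.0625) and 0.0073 in TE (SE 0.0906, adjusted p = 0.994). The 95% interval for TE on the main coding sequence was -11.6% to 14.2%.

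Atf5 and Ddit3 were measured with less precision. Atf5 RPFs rested on 9 to 31 counts per library, at 2.005, 1.28, 1.41, 1.05 and 1.51 CPM in basal and 2.13, 1.48, 1.16, 1.13 and 1.59 CPM in DHPG libraries. The values were close within each replicate number and the log2 fold change was 0.012 (SE 0.215), but the interval for TE ran from -32.2% to 53.2%. Ddit3 RNA was 18.3, 19.1, 16.98 and 20.1 CPM in basal and 15.4, 24.9, 17.6, 16.8 and 17.9 CPM in DHPG libraries, of which DHPG replicate 2 was the highest of all. Its RPFs were 7.09, 7.91, 5.47, 5.60 and 6.05 CPM in basal and 7.64, 6.91, 5.47, 7.15 and 6.03 CPM after DHPG, higher in 3 of 5 pairs. The log2 fold change was -0.020 (SE 0.121) in RNA, 0.014 (SE 0.108) in RPFs and 0.038 (SE 0.158) in TE.

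The phosphatase subunits also gave no call. Ppp1r15a RNA was 70.6, 73.8, 77.4 and 82.2 CPM in basal and 77.5, 79.4, 78.4, 89.7 and 68.2 CPM in DHPG libraries, higher in 4 of 4 pairs, while the unpaired DHPG replicate 5 was the lowest library. The log2 fold change was 0.10 (SE 0.0745, adjusted p = 0.758). RPFs were 10.2, 9.68, 9.79, 10.3 and 9.95 CPM in basal and 12.1, 9.40, 9.62, 12.0 and 10.2 CPM after DHPG, where replicates 1 and 4 stood above the rest, and the fold change was 0.057 (SE 0.0861). Ppp1r15b differed by 0.019 in RNA (SE 0.0754), -0.021 in RPFs (SE 0.0501) and -0.041 in TE (SE 0.0844).

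**Figure D5:**
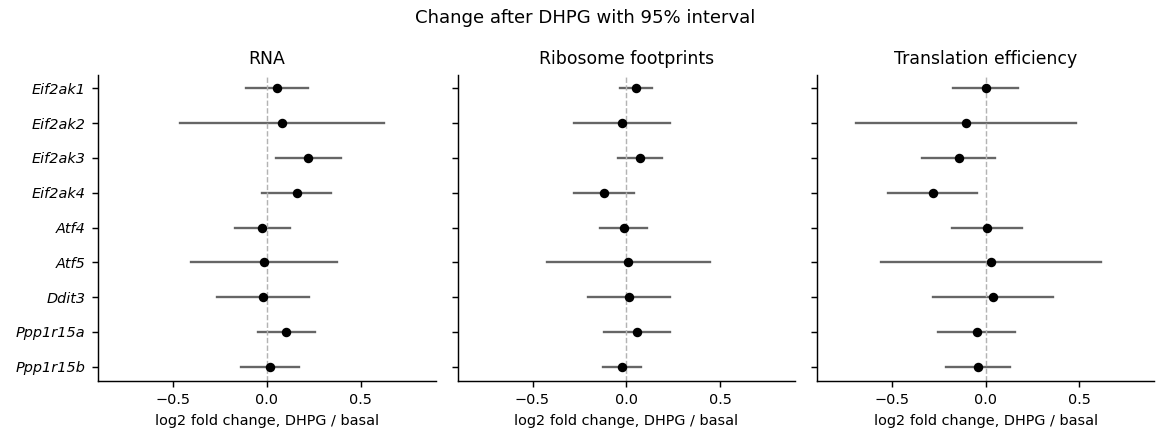
The 3 panels plot the log2 fold change of DHPG over basal (x axis) for RNA, RPFs and TE of the 9 tested members, with 95% intervals from the edgeR fits. Intervals include 0 except for Eif2ak3 in RNA (0.22) and Eif2ak4 in TE (-0.28), neither of which passed the adjusted threshold.

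The wider pathway gave no call either. None of 12 eIF2 and eIF2B genes, 12 regulators and catalytic subunits, 29 ATF4 and CHOP targets in RNA (31 in RPFs, 30 in TE), 12 genes of the other unfolded protein response arms or 8 other mRNAs with upstream frames passed the threshold in RNA, RPFs or TE. In RNA, 10 of 12 eIF2 and eIF2B genes had a fold change below 0, with a median of -0.091 (log2), and 11 of 12 regulators and catalytic subunits did, with a median of -0.099, where 52.1% of all genes had one above 0. In RPFs these were 9 of 12 (median -0.022) and 7 of 12 (-0.0088), where 51.4% of all genes were above 0. In TE the direction was the opposite, with 9 of 12 (median 0.033) and 10 of 12 (0.066) above 0, where 49.4% of all genes were. TE sets the RPF change against the RNA change in the same libraries, so its counts are not independent of those above. The smallest p-value in these lists was that of Eif2s1 in RNA, at a log2 fold change of -0.35 (SE 0.0933, adjusted p = 0.414). Eif2d, a factor that can deliver initiator tRNA, had -0.21 (SE 0.0877) in RNA, and Eif5, the GTPase activator of eIF2, had -0.095 (SE 0.0322) in RPFs.

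Targets of ATF4 and CHOP were split in direction in RNA, where 13 of 29 had a fold change above 0 (52.1% of all genes). In RPFs 21 of 31 were above 0 (51.4% of all genes), and in TE 18 of 30 (49.4%). Asns, which makes asparagine, had a log2 fold change of -0.23 in RNA (SE 0.0706, adjusted p = 0.536), from 164 ± 11.4 CPM (SD, n = 4) to 141 ± 7.19 CPM (n = 5). In RPFs the smallest p-values belonged to Slc3a2, an amino acid transporter subunit, at 0.10 (SE 0.0317, adjusted p = 0.164), and Cebpg at 0.26 (SE 0.0811, adjusted p = 0.194). Cebpg RPFs went from 10.9 ± 0.516 to 12.8 ± 1.24 CPM (n = 5 each). In RNA Cth, of cysteine synthesis, had -0.32 (SE 0.158).

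In the remaining lists, the smallest p-values were those of Ppp1ca (-0.14, SE 0.0694) and Dnajc3 (-0.17, SE 0.0874) in RNA and of Nck1 (-0.12, SE 0.0563) and Prkra (-0.11, SE 0.0603) in RPFs, among regulators and catalytic subunits. Among genes of the other unfolded protein response arms they were Edem1 (0.18, SE 0.0973) and Calr (-0.10, SE 0.0681) in RNA and Sdf2l1 (0.13, SE 0.0675) and Canx (0.048, SE 0.0284) in RPFs. Of the 12 genes in that list, 7 were above 0 in RNA, 10 in RPFs and 7 in TE. The shares of all genes were 52.1%, 51.4% and 49.4%. Of the other mRNAs known for upstream frames, Bace1 (0.18, SE 0.0723) and Slc35a4 (0.18, SE 0.0912) led in RNA and Eprs (-0.055, SE 0.0328) and Azin1 (-0.060, SE 0.0393) in RPFs. On the transcript chosen here, the leader of Eprs held no ATG. Eif2a, an alternative initiator tRNA carrier, had -0.087 (SE 0.0430) in RPFs. All are log2 fold changes, and none passed the threshold.

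By edgeR's F test between replicate numbers, 2 of 9 members differed in RNA (48.1% of all genes) and 4 of 9 in RPFs (48.3%), shares no higher than those of all genes. In RPFs Ppp1r15b ranged from 30.6 CPM in replicate 1 to 43.0 CPM in replicate 4 (adjusted p = 0.000354), Eif2ak3 from 21.0 CPM in replicate 4 to 28.04 CPM in replicate 2 (adjusted p = 0.00504), Eif2ak1 from 56.8 CPM in replicate 4 to 67.7 CPM in replicate 2 (adjusted p = 0.00554) and Atf4 from 20.9 CPM in replicate 3 to 25.4 CPM in replicate 1 (adjusted p = 0.0250). In RNA these were Eif2ak4, from 31.4 CPM in replicate 3 to 44.1 CPM in replicate 4 (adjusted p = 0.0102), and Eif2ak1, from 53.1 CPM in replicate 5, a single DHPG library, to 70.2 CPM in replicate 1 (adjusted p = 0.0325). Without replicate 5, 1 member was called in RNA, without replicate 1 also 1, and without replicate 3 none. What differed between the pools was not tested.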

How the data were processed

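The authors separated barcoded reads, trimmed adapters with cutadapt, filtered by quality, removed rRNA and tRNA reads with Bowtie2, aligned to mm10 with TopHat2, kept unique reads, removed duplicates by molecular identifier and deposited RSEM expected counts, which are whole numbers here. RNA reads were counted on whole transcripts, and RPF reads on RefSeq coding sequence without 30 nt at each end. The authors' batch correction and DESeq2 test came after these files. A further 12 columns that match none of the samples were left out.

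Genes were kept with edgeR's filterByExpr (10 counts) and tested with edgeR 4.0.16 (quasi-likelihood, TMM, replicate number as a block, Benjamini-Hochberg over all genes tested) at an adjusted p of 0.01 for RNA and 0.05 otherwise. DHPG RNA replicate 5 has no basal partner and informs the block only. TE was an interaction over all 19 libraries. Basal TE was the RPF against RNA difference in replicates 1 to 4, offset by library size and length, relative to the median gene. Lengths came from 1 GENCODE M21 transcript per gene, which matched 98.8% of 20436 genes and may differ from the RefSeq models the authors counted on. CPM values are counts over the TMM-scaled library total. Upstream frames were read as ATG on the transcript strand. The DHPG fits and the basal TE fit without length were tried on simulated data. The basal TE fit with length and the F test between replicate numbers were not.

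Same-numbered libraries deviated together (correlations 0.271 to 0.723 for RNA and 0.259 to 0.523 for RPFs), so the numbers were taken as pairs from the data. The block removes the level of each number. The p-values for DHPG and for basal TE therefore rest on how much the difference within a number varied from pool to pool. The members and gene lists were chosen with earlier results of these data known. All 10 members are named. From each list, the genes with the smallest p-values in RNA and RPFs are named, and for basal TE the ends of the range and a few others picked after their values were seen. Alternatives were DESeq2 1.42.0 and its size factors, ComBat (sva 3.50.0) before DESeq2, limma 3.58.1, other filters, thresholds, no block, no length and leaving out each replicate.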

Additional observations from a re-analysis of the deposited data

Results flagged for a closer look

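Of 58 groups of values screened for a sample far from the others, 2 were picked out, where chance alone gives about 1 in 20, or 2.9. Ddit3 RNA in DHPG replicate 2 was 24.9 CPM, against 15.4 to 17.9 CPM in the other 4 DHPG libraries. The log2 TE of Eif2ak2 in DHPG replicate 5 was 2.17, against 1.25 to 1.46 in the other 4, and its RNA count there was 9.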

How the results depend on the processing

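No member passed the threshold for a DHPG effect in RNA, RPFs or TE under any alternative run, and the lowest adjusted p of a member was 0.0674 (Eif2ak3 RNA, with ComBat before DESeq2). DESeq2's filtering gave no adjusted p for 9 members in RPFs with the block, nor after ComBat for 8 in RPFs and 3 in RNA, and these are no evidence either way. The number of genes called over the whole table moved more. In RNA it was 1, and became 7 without the filter on low counts, 0 with at least 10 counts in every library, 0 without the replicate block, 0 with DESeq2 and 200 with ComBat before DESeq2, and 0 to 22 leaving out one replicate. In RPFs it was 29, and became 96 without the filter, 0 without the replicate block, 431 with ComBat, 8 at an adjusted p of 0.01, and 3 to 71 leaving out one replicate. In TE it was 0, and became 6 without the filter and 0 to 8 leaving out one replicate. The cause was not tested.

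Log2 fold changes near 0 changed sign. Without the replicate block, RNA of Eif2ak2 was -0.047 and TE of Ppp1r15a 0.019. The TE of Eif2ak1 was -0.00056 with DESeq2's size factors and -0.00099 without the filter, and that of Ppp1r15b was 0.013 with limma. Leaving out one replicate gave, in RNA, -0.070 to 0.028 for Atf4, -0.22 to 0.12 for Atf5, -0.15 to 0.059 for Ddit3 and -0.0095 to 0.079 for Ppp1r15b. In RPFs it gave -0.11 to 0.055 for Eif2ak2, -0.084 to 0.034 for Atf4, -0.050 to 0.12 for Atf5, -0.050 to 0.093 for Ddit3 and -0.055 to 0.0058 for Ppp1r15b. In TE it gave -0.071 to 0.084 for Eif2ak1, -0.055 to 0.056 for Atf4, -0.17 to 0.22 for Atf5 and -0.10 to 0.24 for Ddit3. The other values kept their direction, and leaving out the replicate block changed no call of a member.

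For basal TE, 76 member values kept direction and call and 4 lost the call, all of Eif2ak1 (given above). Members that differed by replicate number in RNA went from 2 to between 0 and 2 leaving out one replicate (1 without replicate 1 or 5, 0 without replicate 3), and genes from 6220 to between 3283 and 7010. Depth limits Trib3, Atf5 and Eif2ak2 most.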
